A study of Mus musculus with 10 samples.

Results

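The genes described here are the 10 that make peptides for major histocompatibility complex (MHC) class I and help to load them: the immunoproteasome subunit genes Psmb8, Psmb9 and Psmb10, the PA28 proteasome activator genes Psme1 and Psme2, the peptide transporter genes Tap1 and Tap2, the tapasin gene Tapbp, the class I light chain gene B2m and the class I transactivator gene Nlrc5. They were chosen by symbol, are 10 of the 56980 genes in the deposited table, and all 10 passed the filter on low counts. RNA-seq counts were compared between 5 libraries of mouse macrophages with Jaml, the junctional adhesion molecule-like gene, removed in macrophages (KO) and 5 with the gene intact (WT). Both genotypes were stimulated in the same way, with 100 ng/ml lipopolysaccharide (LPS) over 8 h followed by 5 mM ATP over 30 min, so no untreated level is given. The titles call the KO group a macrophage knockout and its genotype tag calls it a knockdown; the labels name no Cre line, strain, age or tissue of origin. The table heads 5 of its columns SI, which the labels leave undefined; these were assigned to KO by elimination, and all directions given depend on that.

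Libraries held 19378160 to 22766319 counts in KO and 19319512 to 21230317 counts in WT, and 3 counts, the floor for a gene to be seen, correspond to 0.132 to 0.155 CPM (counts of a gene per 1000000 counts of its library). Jaml RNA was at or below 2 counts in every library and could not check the labels. Macrophage markers summed to 21980 to 23990 CPM in KO and 23130 to 24590 CPM in WT. Most of this sum was Lyz2, the macrophage lysozyme gene, which averaged 17530 ± 722 CPM in KO and 18210 ± 521 CPM in WT (edgeR adjusted p = 0.289). Fcgr1 was called lower, at 59.1 CPM in KO against 182 CPM in WT, 3.08-fold. Mertk was also called lower and Csf1r higher. Markers of T cells, B cells, natural killer cells and neutrophils each summed to at most 1.23 CPM in any library, and Cd3e, Ncr1 and Klrd1 were at 0 in all 10. The 6 dendritic cell markers summed to 2.07 to 3.19 CPM in KO and 1.93 to 3.33 CPM in WT, with Xcr1 and Siglech at 0. The 5 mast cell markers summed to 1.81 to 3.41 CPM in KO and 4.46 to 8.15 CPM in WT. Cpa3 (0.612 CPM in KO, 1.845 CPM in WT) and Cma1 (0.946 CPM in KO, 2.35 CPM in WT) were called lower, and Kit was not called. The 6 mesothelial and fibroblast markers summed to 534 to 655 CPM in KO and 464 to 511 CPM in WT. Of these 6, Col1a1 (318 CPM in KO, 245 CPM in WT), Col1a2 (255 CPM in KO, 205 CPM in WT) and Dcn were called higher. Upk3b was called lower, at 0.212 CPM in KO against 1.41 CPM in WT, and Msln and Wt1 were not called. Msln differed widely among KO libraries, with 8.985, 1.079, 11.41, 0.4418 and 0.3024 CPM in KO 1 to KO 5, against 5.025 to 9.739 CPM in WT. The part of these differences in the results was not tested. Whether the libraries stem from separate animals is not given in the labels; p-values therefore measure only the spread among these samples, and it may be technical. In bulk RNA, fewer cells of a type and less RNA per cell cannot be told apart.

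MHC class I molecules show peptides from inside the cell to CD8 T cells. The proteasome, a barrel-shaped protease, cuts cytosolic proteins; interferons raise alternative catalytic subunits that replace the constitutive ones in newly built cores and form the immunoproteasome, and PA28 caps the barrel. TAP carries the peptides into the endoplasmic reticulum (ER), where tapasin holds it close to class I heavy chains paired with β2-microglobulin, and NLRC5 drives transcription of many of these genes together. In macrophages the pathway is known for its induction by interferons and by Toll-like receptor ligands.

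Psmb9 and Tap1 lie head to head in the class II region of chromosome 17. In the table, whose coordinates are given as deposited, Psmb9 (ENSMUSG00000096727) runs from 34400961 to 34406738, Tap1 (ENSMUSG00000037321) from 34406527 to 34416199, Psmb8 (ENSMUSG00000024338) from 34416695 to 34420428 and Tap2 (ENSMUSG00000024339) from 34422501 to 34435295. These 4 genes thus sit in 34335 bases. The spans of Psmb9 and Tap1 overlap by 212 bases, and without a stated strand setting reads there cannot be assigned. Counts of Tap1 came to 368% of those of Psmb9, and how far shared reads entered the Psmb9 values was not tested. RefSeq promoters (GRCm38.p6, a different build from that of the table's coordinates) were found for 8 of the 10 genes; Tap2 and Nlrc5 had no entry. Each window of 300 bases was searched on both strands for 4 short motifs: GAAA, any 2 bases and GAAA for the interferon-stimulated response element (ISRE), TTC, any 3 bases and GAA for the interferon-gamma-activated site (GAS), GGG, any 2 bases, TT, any base and CC for NF-kB, and CCAAT. The 4 sequences below are shown because they hold the ISRE, GAS and NF-kB matches found and the stretch between the starts of Psmb9 and Tap1; each runs 5′ to 3′ on the gene's strand and ends at the base before the annotated start, except Psme1, which goes 20 bases past it, and capitals mark motif matches.
Tap1, chr17:34187306-34187555, plus strand: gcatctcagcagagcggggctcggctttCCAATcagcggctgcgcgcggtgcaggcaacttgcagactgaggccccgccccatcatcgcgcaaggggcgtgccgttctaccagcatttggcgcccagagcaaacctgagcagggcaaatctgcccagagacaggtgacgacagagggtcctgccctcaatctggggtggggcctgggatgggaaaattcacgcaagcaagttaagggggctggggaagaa
Psmb8, chr17:34197945-34198194, plus strand: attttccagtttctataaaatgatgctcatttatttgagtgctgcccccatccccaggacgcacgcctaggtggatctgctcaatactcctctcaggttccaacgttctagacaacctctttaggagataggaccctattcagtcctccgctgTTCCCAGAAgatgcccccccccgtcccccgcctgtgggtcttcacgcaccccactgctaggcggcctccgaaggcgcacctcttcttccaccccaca
B2m, chr2:122147437-122147686, plus strand: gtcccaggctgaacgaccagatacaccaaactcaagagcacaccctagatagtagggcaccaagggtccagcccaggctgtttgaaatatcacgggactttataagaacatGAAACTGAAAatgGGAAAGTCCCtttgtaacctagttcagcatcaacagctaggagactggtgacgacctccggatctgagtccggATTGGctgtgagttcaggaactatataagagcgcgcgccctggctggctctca
Psme1, chr14:55578244-55578513, plus strand: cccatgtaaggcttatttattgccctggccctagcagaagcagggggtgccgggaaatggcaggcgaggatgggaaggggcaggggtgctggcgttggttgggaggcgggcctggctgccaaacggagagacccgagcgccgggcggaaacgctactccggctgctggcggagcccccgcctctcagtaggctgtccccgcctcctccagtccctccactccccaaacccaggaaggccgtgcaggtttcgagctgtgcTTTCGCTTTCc
The annotated starts of Psmb9 and Tap1 were 226 bases apart on opposite strands, so the Tap1 stretch also holds most of the Psmb9 window, and its CCAAT match is the same one that lies 8 bases before the Psmb9 start. Psmb8 held a GAS match that begins 97 bases before its start. B2m held an ISRE match at 139 bases, an NF-kB match at 126 bases and a CCAAT match at 53 bases before its start. In Psme1 the ISRE match begins at base 10 of the transcript. Tapbp held a pair of CCAAT matches, while the windows of Psmb10, Psme2 and the constitutive subunit genes Psmb5 and Psmb6 held none of these letters; Psmb7 had no entry. Among all 32851 promoters of the table the share with a match was 3.44% for ISRE, 8.30% for GAS, 4.79% for NF-kB and 37.4% for CCAAT. A match describes letters and not a bound factor.

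Nlrc5, the Tap genes, the immunoproteasome genes and the PA28 genes had less RNA in KO macrophages, by 1.24-fold to 2.20-fold, while B2m was lower by 1.14-fold and Tapbp was not called. Of the 10 genes, 9 were lower in KO by the quasi-likelihood test of edgeR (called at a Benjamini-Hochberg adjusted p below 0.05 over all 14436 genes tested), none was higher, and their median log2 fold change was -0.68. None was higher by unadjusted p, by DESeq2 or by limma-voom either. Over all genes tested, 15.0% were called lower and 14.1% higher, 29.1% in either direction, with a median log2 fold change of 0.01. All 5 KO libraries lay below all 5 WT libraries for 7 of the 10 genes, against 12.4% of all genes tested. Log2 fold changes below are KO minus WT, given as estimate ± SE, and CPM are scaled by TMM factors, which were 1.02 to 1.07 in KO and 0.948 to 0.969 in WT. With library totals in place of TMM the median of all genes moved to 0.12, 8 of the 10 genes were called lower and none higher.

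**Figure D1:**
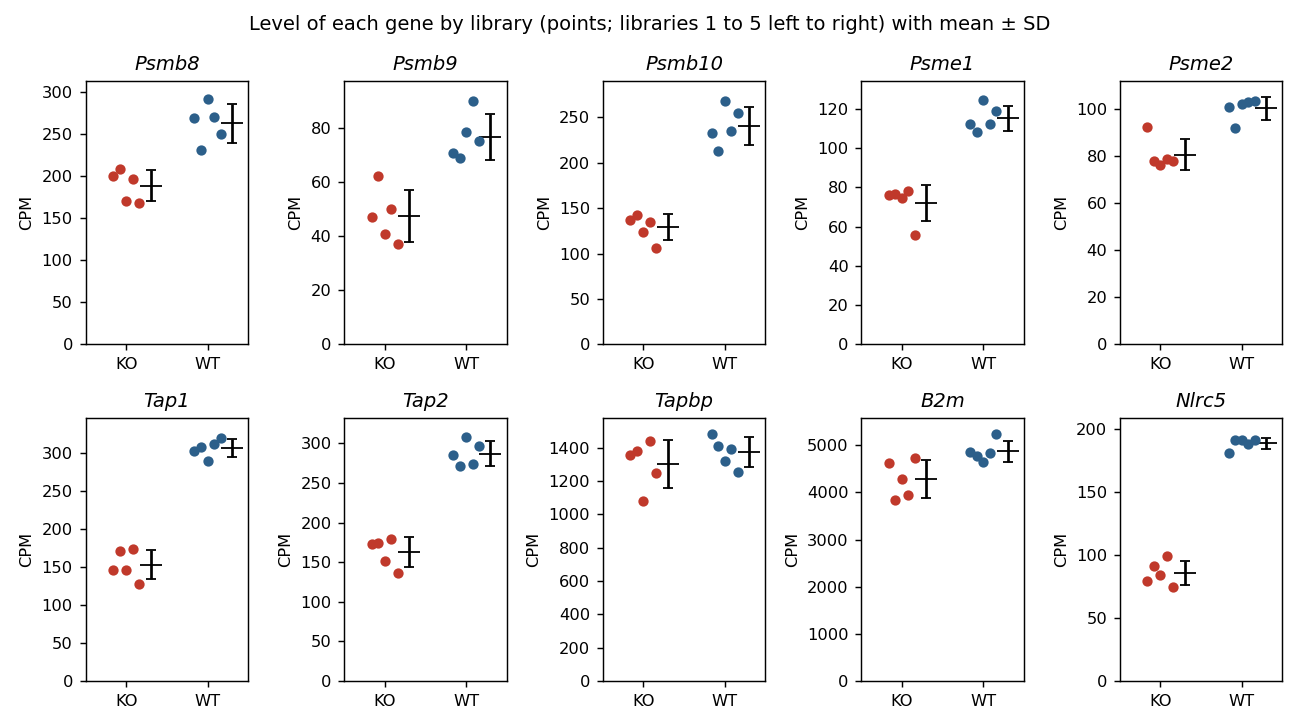
Level of each of the 10 genes in CPM (vertical axis, from 0) in the 5 KO and 5 WT libraries; points are libraries and bars are mean ± SD. In 7 panels every KO point lies below every WT point; the groups overlap for Psme2, Tapbp and B2m.

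The transactivator gene showed the largest fold of the 10. Nlrc5 (ENSMUSG00000074151, chromosome 8, 95160984 to 95253900) had 79.2, 91.2, 84.1, 99.3 and 74.6 CPM in KO 1 to KO 5, against 181, 191, 191, 188 and 191 CPM in WT 1 to WT 5. The highest KO library was thus far below the lowest WT library, and the WT values lay close together, the coefficient of variation being 11.4% in KO and 2.37% in WT. Its log2 fold change was -1.14 ± 0.07 (edgeR adjusted p = 4.39e-07), 2.20-fold lower. Its span shares 748 bases with the long noncoding RNA gene 9330175E14Rik, whose counts came to 3.85% of those of Nlrc5.

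The catalytic subunit genes of the immunoproteasome all fell, by differing amounts. Psmb10, whose product β2i has trypsin-like activity (ENSMUSG00000031897, chromosome 8, 106662367 to 106665076), had 138, 143, 123, 135 and 107 CPM in KO 1 to KO 5, against 233, 213, 268, 235 and 255 CPM in WT 1 to WT 5. The groups were far apart, with KO 5 lowest, and Psmb10 fell by 0.90 ± 0.08 on the log2 scale (edgeR adjusted p = 9.42e-06), 1.86-fold lower. Psmb9, which encodes β1i, had 47.1, 62.2, 40.8, 50.2 and 37.2 CPM in KO 1 to KO 5, against 70.8, 68.9, 78.8, 90.2 and 75.2 CPM in WT 1 to WT 5. It varied most of the 10 genes within KO, with KO 2 close to the lowest WT library, and fell by 0.69 ± 0.13 (edgeR adjusted p = 0.0015), 1.62-fold lower. Psmb8, which encodes β5i with chymotrypsin-like activity, had 200.1, 208, 169.6, 196 and 168 CPM in KO 1 to KO 5, against 269, 230.3, 292, 270.4 and 250.3 CPM in WT 1 to WT 5. Here the highest KO and the lowest WT library nearly met, and the fall was 0.48 ± 0.08 (edgeR adjusted p = 0.000598), 1.39-fold lower.

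The constitutive subunits that these replace moved little. Psmb5, the counterpart of Psmb8, averaged 147 ± 10.1 CPM in KO and 131 ± 5.09 CPM in WT (mean ± SD, n = 5 each), a log2 fold change of 0.17 ± 0.05 (edgeR adjusted p = 0.0273). Psmb6, the counterpart of Psmb9, averaged 335 ± 13.1 CPM in KO and 367 ± 18.0 CPM in WT and fell by 0.13 ± 0.04 (edgeR adjusted p = 0.0344). Psmb7, the counterpart of Psmb10, averaged 135 ± 4.41 CPM in KO and 131 ± 2.64 CPM in WT, at 0.04 ± 0.03 (edgeR adjusted p = 0.411). The groups overlapped for all 3, and with library totals 2 of the 3 were higher and none lower. Neither call was firm: Psmb5 lost its call without KO 1, KO 2, KO 3 or WT 2, and Psmb6 without KO 3, KO 4, KO 5, WT 1, WT 3, WT 4 or WT 5 (highest edgeR adjusted p 0.0656 for Psmb5 and 0.0884 for Psmb6).

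To compare each immunoproteasome gene with its partner, the ratio of their counts was taken within each library, which needs no scaling between libraries. Psmb8 had 1.28, 1.33, 1.14, 1.38 and 1.26 counts per Psmb5 count in KO 1 to KO 5, against 2.06, 1.82, 2.09, 2.08 and 1.94 in WT 1 to WT 5. All KO ratios were below all WT ratios, and the mean log2 ratio was 0.351 ± 0.104 in KO and 0.996 ± 0.084 in WT (SD, n = 5 each). That difference of -0.65 had an exact two-sided permutation p of 0.00794, the smallest that 5 against 5 libraries allow, and an adjusted p of 0.00992 over the 5 ratios tested. Psmb10 had 0.976, 1.03, 0.950, 1.01 and 0.801 counts per Psmb7 count in KO 1 to KO 5, against 1.75, 1.59, 2.04, 1.803 and 2.00 in WT 1 to WT 5. Counts of the 2 genes were thus nearly equal in KO, and the log2 difference was -0.94 (exact permutation p = 0.00794, adjusted 0.00992). Psmb9 had 0.138, 0.177, 0.127, 0.150 and 0.115 counts per Psmb6 count in KO 1 to KO 5, against 0.194, 0.197, 0.199, 0.249 and 0.210 in WT 1 to WT 5. KO 2 came nearest to the WT range without entering it, and the log2 difference was -0.58 (exact permutation p = 0.00794, adjusted 0.00992). Each immunoproteasome gene was therefore lower in KO relative to its constitutive partner in 5 of 5 libraries.

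**Figure D2:**
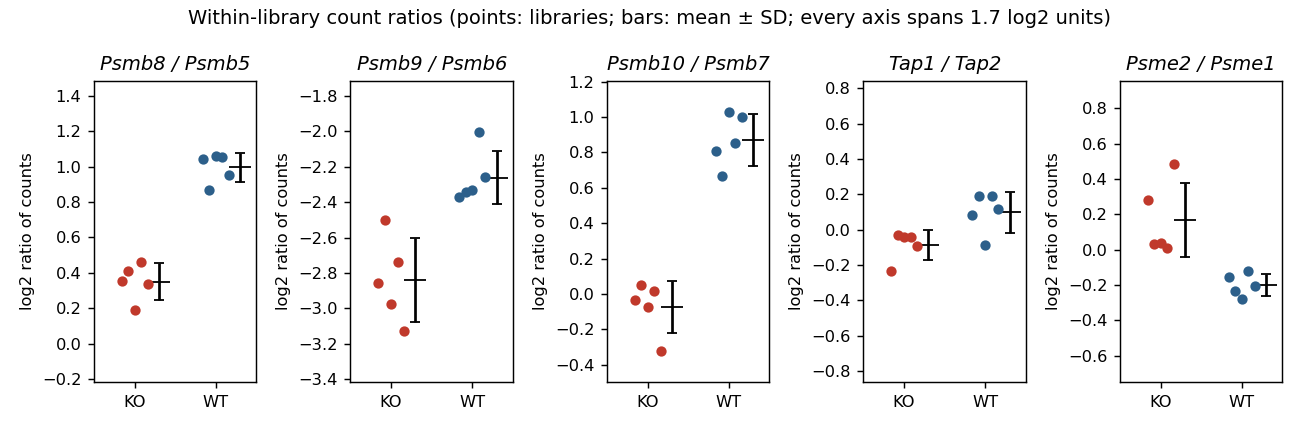
Log2 ratio of the counts of the named pair of genes within each library (vertical axis; every panel spans the same range) in 5 KO and 5 WT libraries; points are libraries and bars are mean ± SD. The KO points lie wholly below the WT points for the 3 immunoproteasome pairs, wholly above them for Psme2 over Psme1, and overlap them for Tap1 over Tap2.

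The PA28 genes encode the ring that opens the proteasome barrel. Psme1, its alpha subunit (ENSMUSG00000022216, chromosome 14, 55815580 to 55818986), had 75.9, 76.5, 74.4, 78.2 and 55.8 CPM in KO 1 to KO 5, against 112, 108, 124, 112 and 119 CPM in WT 1 to WT 5. KO 5 stood well below the other KO libraries, which agreed within 4 CPM, and all were below WT. Psme1 fell by 0.68 ± 0.08 on the log2 scale (edgeR adjusted p = 9.56e-05), 1.60-fold lower. Psme2, its beta subunit (ENSMUSG00000079197, chromosome 14, 55824898 to 55828570), had 92.3, 78.1, 76.3, 78.7 and 78.1 CPM in KO 1 to KO 5, against 101, 91.9, 102, 103 and 103 CPM in WT 1 to WT 5. KO 1 and WT 2 overlapped, each apart from the rest of its group, and Psme2 fell by 0.31 ± 0.06 (edgeR adjusted p = 0.00152), 1.24-fold lower.

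Psme2 has a near copy, Psme2b (ENSMUSG00000078153, chromosome 11, 48836181 to 48837017), named after its values were seen, and the authors' counting could have split reads between them. Psme2b held more counts than Psme2 in every library: Psme2 had 25.0% to 27.7% of their joint counts in KO and 24.5% to 25.9% in WT. Psme2b averaged 228 ± 14.6 CPM in KO and 299 ± 10.6 CPM in WT (mean ± SD, n = 5 each) and fell by 0.39 ± 0.05 on the log2 scale (edgeR adjusted p = 8.32e-05). With the 2 genes summed, the fall was 0.37 ± 0.05 (edgeR adjusted p = 9.77e-05), so the direction does not rest on how the reads were split. Psme2 had 1.22, 1.02, 1.02, 1.01 and 1.40 counts per Psme1 count in KO 1 to KO 5, against 0.897, 0.850, 0.823, 0.919 and 0.868 in WT 1 to WT 5. The beta subunit was thus higher relative to the alpha subunit in every KO library, by 0.37 on the log2 scale (exact permutation p = 0.00794, adjusted 0.00992), and by 0.31 with Psme2b added (exact permutation p = 0.00794, adjusted 0.00992).

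The TAP genes encode the subunits of the transporter that moves peptides into the ER. Tap1 had 147, 172, 147, 174 and 128 CPM in KO 1 to KO 5, against 303, 309, 289.8, 313 and 321 CPM in WT 1 to WT 5. The groups did not overlap, and Tap1 fell by 1.00 ± 0.08 on the log2 scale (edgeR adjusted p = 2.28e-06), 2.00-fold lower. Tap2 had 172, 175, 151, 179 and 136 CPM in KO 1 to KO 5, against 285, 271, 308, 274 and 296 CPM in WT 1 to WT 5. KO 5 was the lowest of the KO libraries for both genes and KO 4 the highest. Tap2 fell by 0.82 ± 0.07 (edgeR adjusted p = 7.43e-06), 1.76-fold lower. Within a library, Tap1 had 0.852, 0.981, 0.974, 0.970 and 0.938 counts per Tap2 count in KO 1 to KO 5, against 1.06, 1.14, 0.941, 1.14 and 1.08 in WT 1 to WT 5. WT 3 lay inside the KO range, and the log2 difference of -0.19 had an exact permutation p of 0.0317 (adjusted 0.0317). The adjusted p of this ratio was 0.0556 without WT 1, WT 2, WT 4 or WT 5 and 0.0893 without KO 1 and KO 2 or without KO 1 and KO 3.

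Tapbp and B2m shifted least of the 10 genes. Tapbp, the tapasin gene (ENSMUSG00000024308, chromosome 17, 34134873 to 34148266), had 1359, 1381, 1081, 1443 and 1251 CPM in KO 1 to KO 5, against 1485, 1412, 1323, 1391 and 1252 CPM in WT 1 to WT 5. The groups overlapped widely, and the log2 fold change was -0.08 ± 0.07 (edgeR adjusted p = 0.498), turning to 0.04 with library totals (edgeR adjusted p = 0.712). The gene Zbtb22 lies within its span, with counts equal to 2.82% of those of Tapbp. B2m (ENSMUSG00000060802, chromosome 2, 121978167 to 121983564) had 4635, 3831, 4291, 3940 and 4738 CPM in KO 1 to KO 5, against 4859, 4767, 4652, 4839 and 5249 CPM in WT 1 to WT 5. KO 5 overlapped the WT libraries, and B2m fell by 0.18 ± 0.06 (edgeR adjusted p = 0.0411), 1.14-fold lower. That call was not firm: the edgeR adjusted p was 0.448 with library totals, 0.151 without a low-count filter, 0.0577 with a stricter one, 0.0727 without KO 1 and KO 2, and 0.0692 to 0.139 without KO 2, KO 3, KO 4 or any single WT library.

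Levels can be compared between genes only per length, and here are CPM per kilobase of merged exons (GENCODE M21), since the gene length behind the deposited FPKM exceeded the whole gene span for 5 of the 10 genes. B2m stood highest, at 4985 ± 470 in KO and 5666 ± 262 in WT (mean ± SD, n = 5 each), followed by Tapbp at 450 ± 49.1 in KO and 474 ± 30.6 in WT. Next in KO came Psmb8 at 116 ± 11.3, Psmb10 at 98.5 ± 11.0, Psme2 at 82.7 ± 6.73, Psme1 at 64.9 ± 8.34, Tap1 at 52.0 ± 6.52, Tap2 at 47.3 ± 5.34 and Psmb9 at 35.1 ± 7.17 CPM per kilobase. In KO, Tap1 and Tap2 lay within 1 SD of each other. In WT the order was Psmb10 at 184 ± 16.3, Psmb8 at 161 ± 14.2, Tap1 at 104 ± 3.96, Psme1 at 104 ± 5.79, Psme2 at 103 ± 4.92, Tap2 at 83.4 ± 4.48 and Psmb9 at 56.8 ± 6.25. Tap1, Psme1 and Psme2 lay within 1 SD of each other in WT. The level of Psme2 leaves out its near copy Psme2b, at 273 ± 17.5 in KO and 357 ± 12.7 in WT. If reads were split between these 2 genes, the level of Psme2 would be too low, so its place in the order is uncertain. Nlrc5 was lowest in both, at 10.6 ± 1.21 in KO and 23.2 ± 0.550 in WT. The constitutive genes Psmb5, Psmb6 and Psmb7 stood at 164 ± 11.2, 419 ± 16.4 and 117 ± 3.80 CPM per kilobase in KO and at 146 ± 5.67, 459 ± 22.5 and 113 ± 2.28 in WT.

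The libraries of a group differed in ways that recurred among the 10 genes. KO 5 was the lowest KO library for 7 of them and KO 4 the highest for 5, whereas in WT the lowest library was WT 2 for 6 and the highest WT 3 or WT 5 for 4 each. The coefficient of variation was larger in KO than in WT for all 10, against 56.3% of all genes tested, with medians over the 10 of 11.2% in KO and 5.47% in WT and over all genes of 9.35% in KO and 8.75% in WT. With each gene centred on its mean log2 CPM over the 10 libraries, the mean of the 10 profiles was -0.26, -0.21, -0.40, -0.22 and -0.49 in KO 1 to KO 5, against 0.31, 0.24, 0.36, 0.34 and 0.34 in WT 1 to WT 5. Psme1, Psmb8 and Tap2 followed this mean most closely, with root mean square differences of 0.09, 0.10 and 0.11 on the log2 scale. Tapbp, B2m and Nlrc5 followed it least, with 0.30, 0.27 and 0.27. The gap between KO and WT was smaller than that of the mean for Tapbp and B2m and larger for Nlrc5. Among 11903 genes whose log2 CPM averaged 1 or more, the 6 outside the 10 with the most similar centred profile over the 10 libraries were Ogfr, Azi2, Nfkbia, Rnf114, H2-T24 and Tnfsf15, with differences of 0.04, 0.04, 0.04, 0.04, 0.04 and 0.05. Their log2 fold changes ran from -0.72 in Tnfsf15 to -0.60 in Rnf114. The profile used to pick them includes the gap between KO and WT, so fold changes near that gap follow from the choice.

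**Figure D3:**
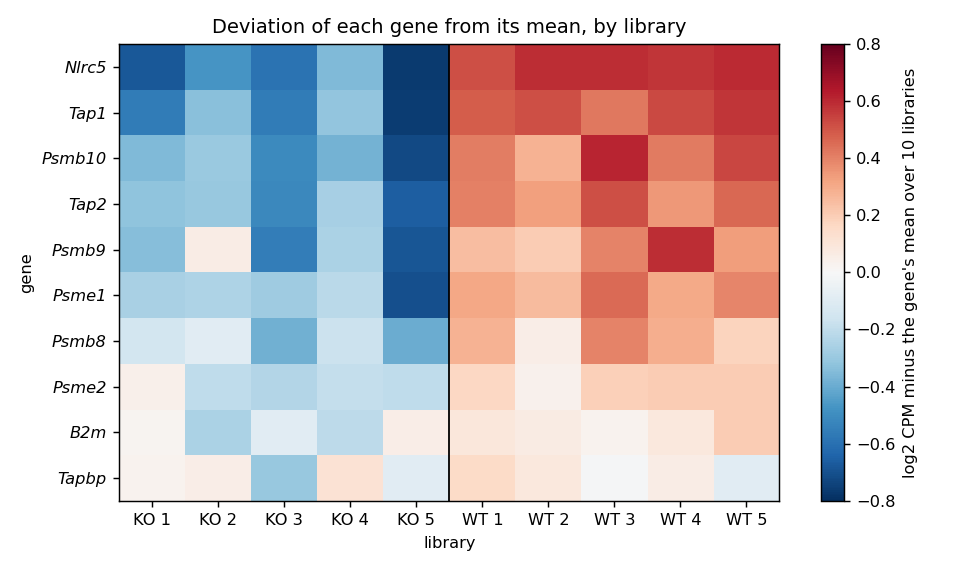
Log2 CPM of each gene (rows, ordered by the difference between KO and WT) minus its mean over the 10 libraries (columns), from blue for lower to red for higher. Rows other than B2m and Tapbp are below 0 in the KO columns, apart from Psmb9 in KO 2 and Psme2 in KO 1, and above 0 in the WT columns; the rows of B2m and Tapbp are pale.

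Other proteasome genes showed small differences, to be read against the 29.1% of all genes called in either direction. Of 11 other genes of the 20S core, the proteolytic barrel, 3 were lower in KO and 1 was higher. Psma5 fell by 0.34 ± 0.05 on the log2 scale, Psma4 by 0.19 ± 0.04 and Psma6 by 0.12 ± 0.04, and Psmb3 rose by 0.16 ± 0.04. Of 18 genes of the 19S cap, which unfolds ubiquitinated proteins, the ubiquitin receptor gene Adrm1 fell by 0.26 ± 0.04 and the ATPase gene Psmc2 by 0.14 ± 0.04, and the other 16 did not pass. Among 8 genes of assembly factors and other regulators, Psme4, which encodes the alternative activator PA200, fell by 0.44 ± 0.04, the assembly chaperone gene Psmg1 rose by 0.27 ± 0.07 and 6 did not pass. Psme3, the nuclear relative of PA28, stood at -0.09 ± 0.04 (edgeR adjusted p = 0.104). The median log2 fold change was -0.04 in the 20S list, -0.02 in the 19S list and 0.01 in the third list, against 0.01 for all genes. With library totals 1 gene of the 20S list was lower and 1 higher, and in the 19S list 1 was lower and 8 higher. Psma6 lost its call in 8 of the 10 fits that leave out 1 library (all but those without KO 5 or WT 4), and Psmc2 lost its call without WT 1, with highest edgeR adjusted p of 0.134 for Psma6 and 0.0592 for Psmc2.

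Peptide trimming genes moved both ways: of 9 listed, 8 were found under their symbols and tested, 3 were lower in KO and 2 higher. Over all genes tested, 15.0% were lower and 14.1% higher. Erap1, the ER aminopeptidase that trims peptides to class I length, fell by 0.33 ± 0.05 on the log2 scale. Lap3, a cytosolic leucine aminopeptidase, fell by 0.30 ± 0.05 and Lnpep, an endosomal aminopeptidase, by 0.25 ± 0.07. The insulin-degrading enzyme gene Ide rose by 0.27 ± 0.05, as did the oligopeptidase gene Thop1 by 0.16 ± 0.05, Thop1 being named after its value was seen. The call of Thop1 was lost without KO 2, KO 3, KO 5, WT 2, WT 4 or WT 5 and that of Lnpep without WT 2 or WT 4, with highest edgeR adjusted p of 0.0911 for Thop1 and 0.061 for Lnpep. The median log2 fold change of the list was -0.08.

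Of 8 loading and folding genes of the ER, 6 were higher in KO and 1 was lower, with a median log2 fold change of 0.14. Among all genes tested, 14.1% were higher and 15.0% lower. Calr, the chaperone calreticulin of the peptide-loading complex, had 1031, 970.1, 976, 1015 and 1046 CPM in KO 1 to KO 5, against 779, 722, 754, 742 and 790.4 CPM in WT 1 to WT 5. All KO libraries were above all WT libraries, and Calr rose by 0.41 ± 0.04 on the log2 scale (edgeR adjusted p = 5.43e-06). Pdia3, its oxidoreductase partner ERp57, rose by 0.24 ± 0.04 and Uggt1, which checks glycoprotein folding, by 0.26 ± 0.05. Tapbpl, the tapasin relative TAPBPR that edits peptides on class I, moved the other way, to 47.2 ± 4.17 CPM in KO, against 86.6 ± 3.33 CPM in WT (mean ± SD, n = 5 each), 1.83-fold lower (edgeR adjusted p = 9.81e-07). The counts of 6 higher and 1 lower were also found with library totals, and 5 to 6 were higher with 1 library left out.

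The list of class I heavy chain genes and related genes moved both ways. Of 19 listed, 18 were in the table under these symbols and 15 were tested. In KO 9 were lower, 3 higher and 3 did not pass, with a median log2 fold change of -0.14. The shares over all genes tested were 15.0% lower and 14.1% higher. The classical genes shifted little: H2-K1 averaged 2676 ± 96.1 CPM in KO and 2775 ± 177 CPM in WT (edgeR adjusted p = 0.445), and H2-D1 7125 ± 330 CPM in KO and 7880 ± 131 CPM in WT, a fall of 0.15 ± 0.04 on the log2 scale (edgeR adjusted p = 0.00837). The nonclassical genes H2-Q4, H2-Q6 and H2-T24 fell by 0.67 ± 0.06, 0.66 ± 0.06 and 0.62 ± 0.06, and H2-T23, which encodes Qa-1, fell by 0.30 ± 0.06. Upward, H2-M2 rose by 0.68 ± 0.05. Cd1d1 and Mr1, which present lipids and vitamin metabolites, rose by 0.64 ± 0.07 and 0.30 ± 0.05. Cd1d1 and Mr1 lie on chromosomes 3 and 1, apart from the H2 genes on chromosome 17, and were named after their values were seen. All 9 genes that were lower were H2 genes, and H2-M2 was the only H2 gene that was higher. The H2 genes are near copies of each other, so reads could have been split or lost between them and their single values are uncertain. With library totals 7 were lower, H2-D1 and H2-Q1 not among them, and 3 higher. H2-Q1, named after its value was seen, was the least firm of those lower. Its call was lost in 9 of the 10 fits that leave out 1 library (highest edgeR adjusted p 0.15).

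Among genes of factors that act on class I and immunoproteasome promoters, the interferon and NF-kB factors were lower in part. Of the 7 reported, 5 were lower, against 15.0% of all genes tested, and 2 did not pass. Their median log2 fold change was -0.31. Stat2 fell by 1.09 ± 0.07 on the log2 scale, Irf1 by 1.08 ± 0.08, Rela by 0.50 ± 0.09, Nfkb1 by 0.31 ± 0.04 and Irf9 by 0.26 ± 0.06. Irf1, a direct activator of Psmb9 and Tap1, had 39.7, 41.7, 37.6, 47.3 and 33.6 CPM in KO 1 to KO 5, against 89.0, 80.2, 82.4, 84.2 and 85.7 CPM in WT 1 to WT 5. For Irf1 KO 5 was the lowest and KO 4 the highest of the KO libraries, as for Tap1. For Psmb9 KO 5 was also the lowest but KO 2 the highest, and a link between these genes was not tested. Irf2 stood at -0.04 ± 0.11 (edgeR adjusted p = 0.827). Irf8 had 154, 95.6, 89.4, 102 and 172 CPM in KO 1 to KO 5, against 148, 148, 87.3, 87.6 and 139 CPM in WT 1 to WT 5, so that libraries of both genotypes fell on a high and a low level, and its log2 fold change was 0.00 ± 0.22. Of 8 genes of the promoter complex to which NLRC5 is recruited, Rfx5 fell by 0.57 ± 0.08 and Rfxap rose by 0.28 ± 0.09 (edgeR adjusted p = 0.0467); Rfxank and Nfya, at 0.10 ± 0.08 and -0.10 ± 0.04, and 4 others did not pass. These counts, 1 lower and 1 higher of 8, lay near the shares over all genes tested, 15.0% lower and 14.1% higher. The call of Rfxap was lost in 8 of the 10 fits that leave out 1 library, all but those without WT 1 or WT 3 (highest edgeR adjusted p 0.0877).

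The class II list, whose transactivator gene Ciita is the relative of Nlrc5, was lower in part. Of 9 genes 8 were tested, 3 were lower, against 15.0% of all genes tested, and 5 did not pass. The median log2 fold change of the list was -0.33. Ciita averaged 3.48 ± 0.947 CPM in KO and 7.14 ± 1.19 CPM in WT (mean ± SD, n = 5 each) and fell by 1.04 ± 0.18 on the log2 scale, beside 1.14 ± 0.07 for Nlrc5. H2-Aa, an alpha chain gene, fell by 0.36 ± 0.05. The beta chain gene H2-Eb1 fell by 0.44 ± 0.13 but lost its call without KO 2, KO 4, WT 2 or WT 5 (highest edgeR adjusted p 0.0599). The invariant chain gene Cd74 stood at -0.30 ± 0.11 (edgeR adjusted p = 0.051). With library totals 2 of the class II genes were lower and 1 was higher, and leaving out KO 5 gave 4 lower and 1 higher. An alternative chosen after seeing the data removed genes with a gap above 1 in log2 counts between neighbouring libraries of a genotype. With those genes removed, 5 class II genes were lower. A difference between the class I and class II lists was not tested.

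**Figure D4:**
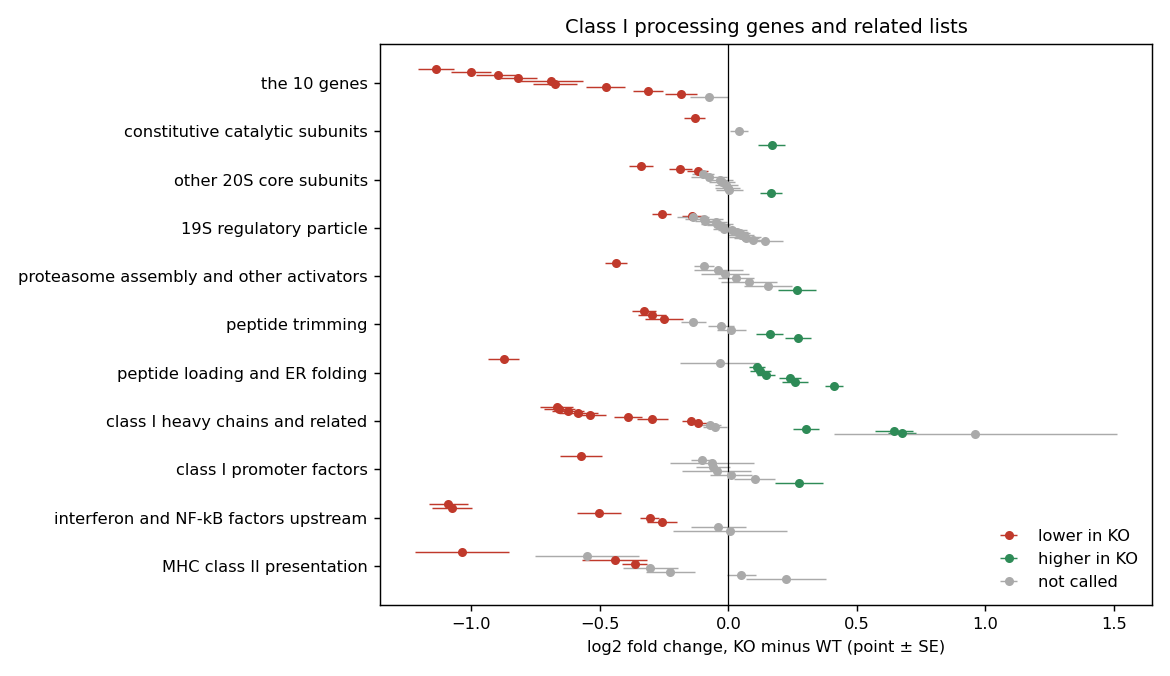
Log2 fold change, KO minus WT (horizontal axis; point ± SE), of the tested genes of the 10 and of the related lists, coloured by whether the gene was lower, higher or not called at an adjusted p under 0.05. The 10 genes spread from -1.14 to -0.08, the 20S and 19S lists lie near 0, and most genes of the ER loading and folding list lie right of 0.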

How the data were processed

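The authors deposited 1 table of 56980 genes with raw counts and FPKM per library; 27622 genes had a count. The tools CASAVA 1.8 and TopHat2 2.0.6, and the builds mm10 and GRCm39 with no role, come from the submitters' processing notes. For the counting program, annotation and strand setting, nothing was given in the sources used here. The deposited FPKM values of the 5 WT columns, scaled by the authors for gene length and library size, served only to recover the gene length behind them; 5 columns, the FPKM of SI, were not used.

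Counts were fitted in R 4.3.3 with edgeR 4.0.16 (TMM scaling; filterByExpr, minimum count 10; quasi-likelihood F test, Benjamini-Hochberg over 14436 genes, call at 0.05), on a design of genotype alone. SE is the log2 fold change divided by the root of F. The script was tested on simulated data. Alternatives used DESeq2 1.42.0, limma 3.58.1 with voom, other scaling and filters, and libraries left out. Ratios of counts within a library, with a pseudocount of 0.5, were compared by a two-sided exact permutation test over libraries, adjusted over 5 ratios. Floors cover counting error only.

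No libraries were duplicates by a chi-square comparison of their counts.

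Genes named are the 10, Lyz2 and Jaml, the constitutive subunits, H2-K1, H2-D1 and H2-T23, the upstream factors (1 is not reported here), up to 4 genes of smallest p in each other list, the 6 of nearest profile, and markers. The members and lists were chosen with earlier results of these data known. Promoter sequences are from RefSeq (GRCm38.p6).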

Additional observations from a re-analysis of the deposited data

Results flagged for a closer look

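Of 38 groups of 5 values examined with Dixon's test, 3 held a library far from the others; chance gives about 1 in 20. Psme1 had 55.75 CPM in KO 5, below the other KO libraries. Psme2 had 92.34 CPM in KO 1, above the other KO libraries, and 91.93 CPM in WT 2, below the other WT libraries.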

How the results depend on the processing

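Nlrc5, Tap1, Tap2, Psmb8, Psmb9, Psmb10, Psme1 and Psme2 were called lower under every alternative run, among them limma-voom, DESeq2 and each library left out; B2m lost its call in 12 of 21 alternatives. With library totals, 1361 genes were called lower and 4231 higher in KO, against 2164 lower and 2036 higher with TMM, and Tapbp turned to 0.038; the cause was not tested. Leaving out 1 library gave 1854 to 2105 genes lower and 1789 to 2067 higher, and 8 to 9 of the 10 genes lower.

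The log2 ratio of Tap1 over Tap2 ran from -0.232 to -0.149 with 1 library left out (exact permutation, adjusted p 0.0132 to 0.0556), and was -0.156 without KO 1 and KO 2 and -0.153 without KO 1 and KO 3, where fewer samples remain. Deviations from the group means of same-numbered libraries correlated at 0.088, -0.040, -0.114, -0.013 and 0.184. The labels state no link beyond the number, and whether same-numbered libraries were prepared together was not tested. With the replicate number as a block the ratios kept their values (-0.645 for Psmb8 over Psmb5, -0.578 for Psmb9 over Psmb6, -0.943 for Psmb10 over Psmb7, -0.185 for Tap1 over Tap2 and 0.368 for Psme2 over Psme1), but the smallest p of 5 pairs is 0.0625, so none could pass. The block in edgeR gave 2015 genes lower and 1765 higher, with the same 9 of the 10 genes lower.

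No strand setting was stated for the counting, so shared bases of Psmb9 and Tap1 and the near copies of Psme2 and of the class I heavy chains limit single values. H2-Q10, Cpa3 and Msln were among 754 genes with a gap above 1 in log2 counts between neighbouring libraries, ranked by count, of a genotype. A single distant library is enough for such a gap. Removing these genes left 9 of the 10 genes lower. This alternative and the sums of Psme2 and Psme2b were chosen after seeing the data.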
